A study of Mus musculus with 6 samples.

Results

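The genes that carry a Wnt signal between cells were examined in MC3T3-E1, an established osteoblastic cell line derived from mouse calvaria. The set was fixed by gene symbol and holds 52 genes, all found among the 43346 rows of the table. They are 16 Wnt ligands, 13 frizzled and LRP receptors, 3 co-receptors of the ROR and RYK type, 11 inhibitors counted with the Dickkopf receptor gene Kremen1, 7 R-spondins and LGR receptors, and 2 genes of ligand secretion. The Rorβ-CRISPR (KO) line, MC3T3-E1 cells edited in the gene of the nuclear receptor Rorβ, was set against the MC3T3-Control line, with 3 libraries each. Cells of both lines had been kept for 2 days in osteoblastic medium after reaching confluence. The labels and files name no guide, no number of edited clones and no origin of the replicates. P-values therefore measure the spread between these libraries, which may be technical, and an effect of the edit and an unrelated difference between the lines cannot be told apart.

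Wnt proteins are lipid-modified in the endoplasmic reticulum by porcupine (Porcn), carried to the cell surface by Wntless (Wls) and bound there by frizzled receptors. With Lrp5 or Lrp6 as co-receptor the signal stabilizes beta-catenin, whereas Ror1, Ror2 and Ryk are best known from branches that do not need beta-catenin. Secreted proteins such as Dkk1, Wif1 and those of the Sfrp kind restrain the signal. R-spondins strengthen it by binding Lgr receptors and sparing frizzled proteins from removal. In bone, signalling through Lrp5 and Lrp6 promotes bone formation by osteoblasts.

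Values are CPM over a library size adjusted with trimmed-mean (TMM) factors, called scaled CPM here, and whole reads could be recovered from them. Reads in genes ranged from 34662707 to 42255967 in the Rorβ-CRISPR libraries and from 40772380 to 42603315 in control. Rorb itself had 69, 78 and 111 reads in the libraries labelled Rorβ-CRISPR, against 1, 3 and 0 in control, so RNA of the targeted gene was higher, not lower, in the libraries that bear its edit in their label, and all directions given here follow the labels. The osteoblast label was checked with 8 markers, all of them above the filter of 1 scaled CPM in 3 libraries. Their summed value was 21432 to 22349 scaled CPM in Rorβ-CRISPR and 35244 to 37071 in control, a sum that was nearly all Col1a1, with 20891 ± 539 in Rorβ-CRISPR and 35509 ± 1018 in control. Bglap and Spp1 were also lower, whereas Ibsp (3.84-fold by the ratio of means), Alpl, Sp7 and Runx2 were higher and Dmp1 was not called. Among markers of other cell types, 2 of 5 for cartilage passed the filter, Sox9 and Col2a1. The list sum was 224 to 238 in Rorβ-CRISPR and 322 to 343 in control. For macrophages and blood 2 of 5 passed, Csf1r and Lyz2 (list sum 14.2 to 15.2 in Rorβ-CRISPR and 20.3 to 23.4 in control). For skeletal muscle 1 of 4 passed, Des (list sum 1.49 to 2.02 and 6.19 to 6.98). For neurons and retina 1 of 5 passed, Map2 (list sum 18.8 to 19.1 and 37.7 to 44.4). None of the 4 adipocyte or 4 endothelial markers passed, with sums of at most 0.499 in Rorβ-CRISPR and 0.460 in control. The aggrecan gene Acan, Myod1, Myog, Myf5, Emr1, Rbfox3, Nrl, Plin1 and Cdh5 had 0 reads in every library. Rows that collect ribosomal RNA reads took 13.1% to 15.2% of reads in Rorβ-CRISPR and 16.9% to 25.4% in control. The part of these other markers in the results was not tested, and scaling without the ribosomal RNA rows changed no call among the Wnt genes.

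Of the 52 Wnt genes, 30 passed the filter and were tested. In the Rorβ-CRISPR libraries 8 of them rose and 17 fell at an adjusted p of 0.05 (limma-trend), and 5 were not called, so 83.3% were called. Across all 13498 tested genes 32.9% rose and 33.3% fell, 66.2% together, so most genes of any kind were called between these lines. The median log2 fold change was -0.17 for the 30 Wnt genes and 0.0025 for all tested genes. The Rorβ-CRISPR and control values did not overlap in 26 of the 30, against 68.4% of all tested genes. The fitted fold change passed 1.5 upward in 3 of them and downward in 9, against 5.85% and 8.04% of all tested genes. Tested against a fold of 1.5, 2 remained higher (Wnt10a and Wnt10b) and 6 remained lower (Wnt5a, Wnt5b, Wnt9a, Lrp5, Dkk3 and Wls), where 3.06% and 4.78% of all tested genes passed in those directions. Scaling by library size only, which raised the median of all genes by 0.21 (log2), gave 12 Wnt genes higher and 12 lower, beside 54.0% of all genes higher and 14.6% lower. In bulk RNA, fewer cells expressing a gene and less RNA per cell cannot be told apart.

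**Figure D1:**
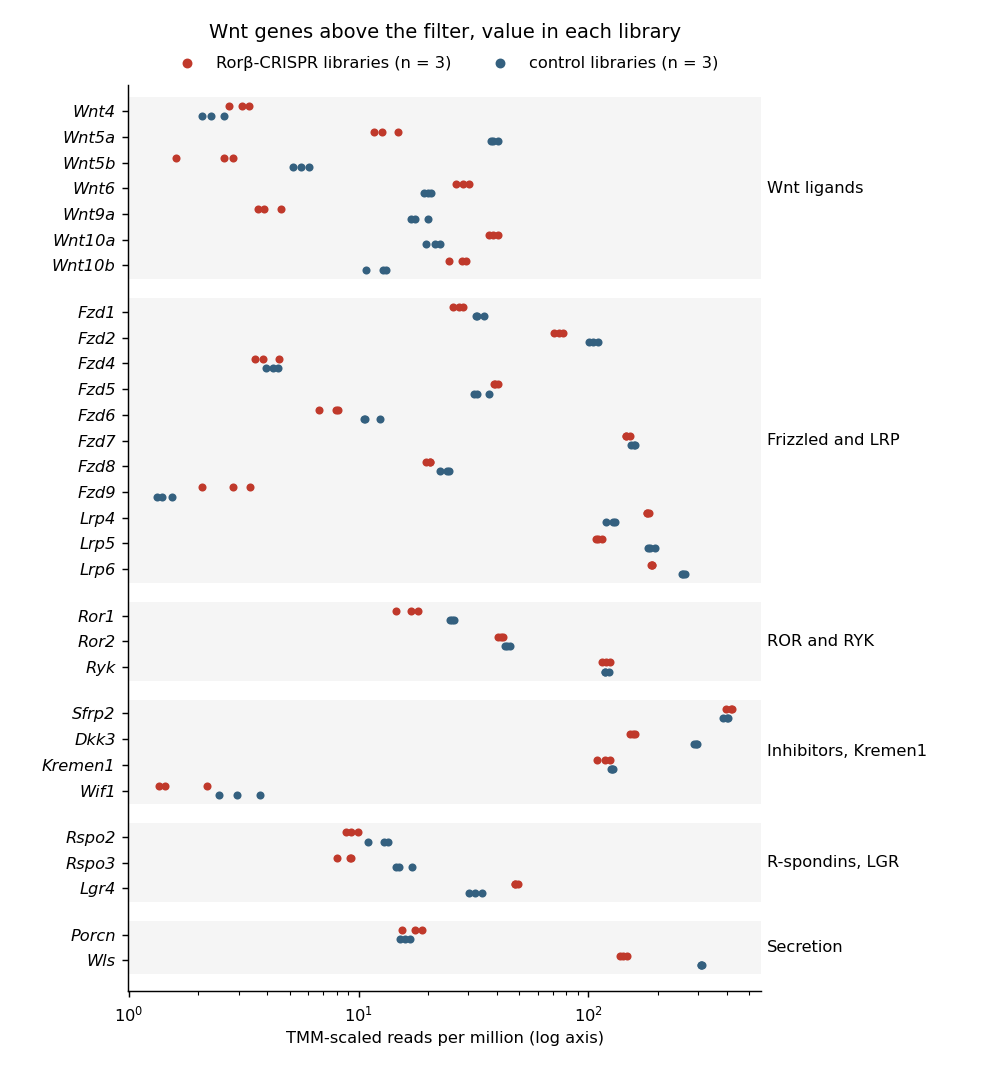
Each point is 1 library, with scaled CPM on a logarithmic horizontal axis and the 30 Wnt genes above the filter down the page by role, Rorβ-CRISPR above control. Wnt5a, Wnt9a, Dkk3 and Wls lie well to the left in Rorβ-CRISPR, Wnt10a, Wnt10b, Lrp4 and Lgr4 to the right, and the points of Ryk and Sfrp2 overlap.

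The 7 Wnt ligands above the filter were all called, beside 66.2% of all tested genes, and they split into 4 that rose and 3 that fell. Wnt10b, a ligand that in mice favours osteoblast over adipocyte formation, had 24.7, 28.1 and 29.4 scaled CPM in the Rorβ-CRISPR libraries, against 12.7, 13.2 and 10.8 in control. It was 2.24-fold higher by the ratio of means (log2 fold change 1.10, SE 0.069, adjusted p = 1.92e-18). Wnt10a, its close relative, had 40.2, 38.5 and 37.0 scaled CPM in Rorβ-CRISPR and 21.5, 22.7 and 19.6 in control. Every Rorβ-CRISPR library lay above every control library for both genes, and Wnt10a was 1.82-fold higher (log2 fold change 0.83, SE 0.054, adjusted p = 3.9e-19). Wnt6 averaged 28.4 ± 1.78 in Rorβ-CRISPR and 20.03 ± 0.702 in control (SD, n = 3 each), a log2 fold change of 0.48 (adjusted p = 1.94e-10). Wnt4 was near the filter, at 3.04 ± 0.302 and 2.32 ± 0.263 (log2 fold change 0.29, adjusted p = 0.019), and it lost its call without Rorβ-CRISPR replicate 1 (adjusted p = 0.0502), Rorβ-CRISPR replicate 2 (0.0947) or control replicate 2 (0.0849). 

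Among the ligands that fell, Wnt9a, known from joint formation in the limb, showed the lowest fold change of the 30 Wnt genes. It had 3.87, 4.58 and 3.65 scaled CPM in the Rorβ-CRISPR libraries, against 16.8, 17.5 and 20.1 in control, a 4.50-fold lower mean (log2 fold change -1.93, SE 0.086, adjusted p = 9.99e-26). Wnt5a, a ligand best known for signalling without beta-catenin, had 12.6, 11.6 and 14.8 scaled CPM in Rorβ-CRISPR and 37.8, 40.5 and 38.4 in control. The groups of libraries lay far apart for both genes, and the log2 fold change of Wnt5a was -1.52 (SE 0.063, adjusted p = 3.44e-25). Wnt5a lies on chromosome 14, where the median of all 401 tested genes was -0.53 (log2), and its log2 fold change was -0.99 after subtraction of that median. Wnt5b, its paralogue on chromosome 6, averaged 2.35 ± 0.653 in Rorβ-CRISPR and 5.63 ± 0.466 in control (log2 fold change -1.004, adjusted p = 2.06e-10).

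Of the 9 other ligands, Wnt2, Wnt3, Wnt3a and Wnt7a had 0 reads in every library, where counting error alone allows up to 3. Wnt1, Wnt2b, Wnt7b, Wnt11 and Wnt16 had reads but stayed under the filter. Wnt2b had 46 reads over the 3 Rorβ-CRISPR libraries and 26 over the 3 control libraries, Wnt11 had 39 and 30, Wnt1 had 10 and 3, and Wnt16, a ligand that in mice maintains cortical bone, had 0 and 2. Wnt7b, which promotes bone formation in mice, had 2, 10 and 4 reads in Rorβ-CRISPR and 2, 0 and 0 in control. Its summed reads gave a ratio of 7.29 between the lines after scaling (95% exact interval for counting error 1.72 to 65.4). The lowest Rorβ-CRISPR and highest control library both had 2 reads of Wnt7b, so it was near the limit of detection.

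The ligands thus differed in make-up between the lines. Their summed scaled CPM over all 16, in which long transcripts weigh more, was 117.6 ± 0.470 in Rorβ-CRISPR and 119.0 ± 3.59 in control. To compare ligands with each other, values were divided by the length of exon in the GENCODE vM21 annotation, giving scaled CPM per kilobase. On that scale the 7 ligands above the filter summed to 42.1 ± 0.795 in Rorβ-CRISPR and 35.5 ± 1.17 in control, and the libraries of the lines did not overlap. Among single ligands Wnt10a was highest in Rorβ-CRISPR at 15.6 ± 0.646, followed by Wnt6 (13.7 ± 0.860), Wnt10b (8.06 ± 0.704), Wnt5a (1.85 ± 0.228), Wnt9a (1.21 ± 0.146), Wnt5b (0.884 ± 0.246) and Wnt4 (0.726 ± 0.072). In control the order was Wnt6 (9.67 ± 0.339), Wnt10a (8.60 ± 0.640), Wnt5a (5.54 ± 0.205), Wnt9a (5.45 ± 0.519), Wnt10b (3.59 ± 0.376), Wnt5b (2.12 ± 0.176) and Wnt4 (0.552 ± 0.063). Wnt5b and Wnt4 in Rorβ-CRISPR, and Wnt5a and Wnt9a in control, did not differ beyond their spread. Wnt10b stood above Wnt5a in each Rorβ-CRISPR library and below it in each control library. Grouped after their values were seen, Wnt6, Wnt10a and Wnt10b together made up 88.9% ± 0.563 of the summed ligand level per kilobase in Rorβ-CRISPR and 61.5% ± 1.77 in control. The shares of Wnt5a, Wnt5b and Wnt9a came to 9.38% ± 0.720 and 36.9% ± 1.79.

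**Figure D2:**
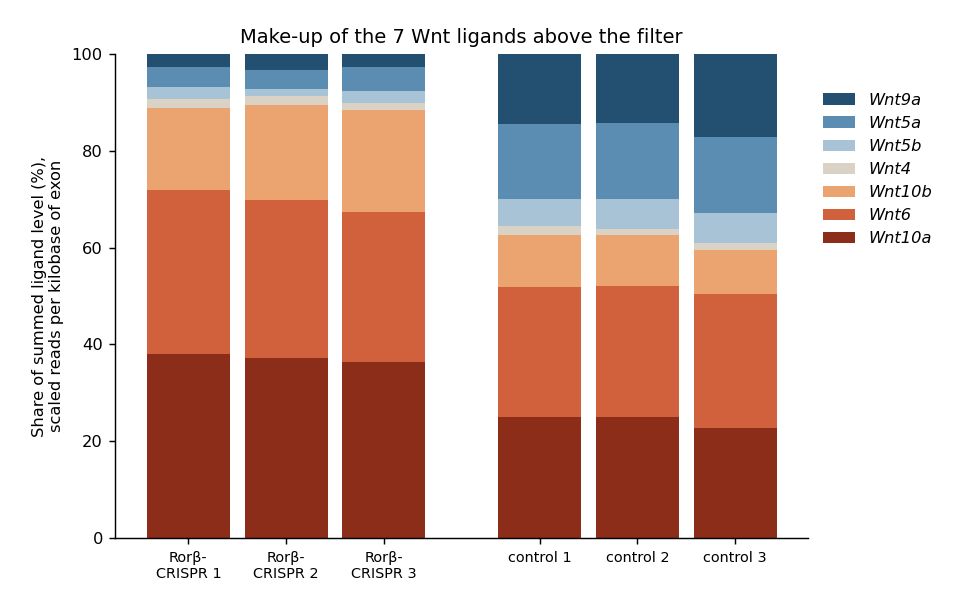
Stacked bars give, for each library, the share of each of the 7 Wnt ligands above the filter in their summed scaled CPM per kilobase of exon. Wnt5a, Wnt5b and Wnt9a, in blue, take 9.38% on average in the Rorβ-CRISPR libraries and 36.9% in control, and Wnt4 stays a thin band throughout.

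Several of these ligands are neighbours in the genome. Wnt6 and Wnt10a lie side by side on chromosome 1 with 0 protein-coding genes between them in the RefSeq annotation of GRCm38.p6, and both rose. Their chromosome had a median of 0.12 (log2), and after its subtraction Wnt6 stood at 0.36 and Wnt10a at 0.72. Wnt10b lies next to Wnt1 on chromosome 15, and Wnt9a next to Wnt3a on chromosome 11. In these pairs a called ligand sat beside one with almost no reads, 13 in all for Wnt1 and 0 for Wnt3a. Wnt10b went against its chromosome, whose median was -0.26 over 479 tested genes, and stood at 1.37 after its subtraction.

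RefSeq promoter windows, from 250 bases before to 50 bases after a transcription start, were given for 33 of the 52 genes, 17 of them above the filter. The windows of 4 genes that moved are printed 5′ to 3′ to show how unlike each other they are, with capitals for the core motif of the TCF/LEF factors that act at the end of the beta-catenin pathway (CTTTG on either strand). AGGTCA, the core of the sites bound by ROR receptors, was searched in the same way, and the motifs share no bases in these windows. Coordinates are of GRCm38.p6.
Wnt10b (chr15:98778101-98778400, - strand): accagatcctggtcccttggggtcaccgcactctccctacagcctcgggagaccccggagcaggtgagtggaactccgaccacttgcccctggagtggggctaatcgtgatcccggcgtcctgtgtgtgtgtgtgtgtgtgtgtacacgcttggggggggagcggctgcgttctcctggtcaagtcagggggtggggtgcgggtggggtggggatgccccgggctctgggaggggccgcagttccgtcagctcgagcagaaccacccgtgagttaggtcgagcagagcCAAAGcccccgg
Wnt6 (chr1:74771642-74771941, + strand): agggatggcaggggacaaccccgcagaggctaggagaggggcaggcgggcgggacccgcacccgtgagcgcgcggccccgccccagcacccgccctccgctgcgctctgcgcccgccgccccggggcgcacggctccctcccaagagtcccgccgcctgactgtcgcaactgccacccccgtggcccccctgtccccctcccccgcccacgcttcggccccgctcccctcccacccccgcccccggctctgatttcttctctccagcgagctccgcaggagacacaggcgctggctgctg
Wnt9a (chr11:59306680-59306979, + strand): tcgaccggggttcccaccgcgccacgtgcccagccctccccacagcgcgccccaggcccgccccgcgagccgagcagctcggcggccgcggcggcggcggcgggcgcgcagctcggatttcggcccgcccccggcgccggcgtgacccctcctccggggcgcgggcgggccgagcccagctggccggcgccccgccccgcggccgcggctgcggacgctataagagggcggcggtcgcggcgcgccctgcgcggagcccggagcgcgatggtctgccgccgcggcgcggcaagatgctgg
Wls (chr3:159839400-159839699, + strand): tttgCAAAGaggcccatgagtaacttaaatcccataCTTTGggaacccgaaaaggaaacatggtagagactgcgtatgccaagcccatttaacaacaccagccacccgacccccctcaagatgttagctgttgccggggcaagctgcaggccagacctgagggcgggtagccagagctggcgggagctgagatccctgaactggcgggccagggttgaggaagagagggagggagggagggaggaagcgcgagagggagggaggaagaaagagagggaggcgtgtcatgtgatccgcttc
Wls held 2 copies of CTTTG and Wnt10b held 1, whereas Wnt6 and Wnt9a held 0. Their GC content was 58.0% for Wls, 66.3% for Wnt10b, 76.7% for Wnt6 and 83.3% for Wnt9a, against a median of 52.7% over all 32851 windows. CTTTG was present in 7 of the 9 windows of genes that fell, in 1 of the 6 windows of genes that rose and in 1 of the 4 of genes not called. Over all tested Wnt genes it was in 9 of 19 windows, beside 53.9% of all windows. CTTTGAT, a longer form of this motif, was in 1 of the 19, a window of Wnt5b, beside 3.73% of all windows. The 9 windows of genes that fell came from 7 genes, 3 of them from Wnt5b, and their median GC content was 62.3%, against 76.2% for genes that rose. AGGTCA was in 0 of the 19 windows of tested Wnt genes and in 2 of the 36 windows of all Wnt genes (Frzb and Wnt16), beside 16.3% of all windows. The median GC content of these 36 windows was 67.2%, above that of all windows. Called genes without a window, left out of the motif counts, were Wnt5a, Wnt10a, Fzd2, Fzd6, Fzd8, Lrp4, Lrp5, Lrp6, Dkk3, Kremen1, Rspo2 and Rspo3.

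Secretion of all Wnt proteins depends on Wls, and Wls fell. It had 137, 147 and 141 scaled CPM in the Rorβ-CRISPR libraries, against 309, 309 and 311 in control. The 3 control libraries were nearly equal and far above every Rorβ-CRISPR library, whose mean was 2.19-fold lower (log2 fold change -1.12, SE 0.028, adjusted p = 9.75e-37). Porcn, the acyltransferase gene that precedes it in the pathway, had 17.3 ± 1.70 in Rorβ-CRISPR and 15.9 ± 0.850 in control, with overlapping libraries and no call (log2 fold change 0.11, 95% interval -0.02 to 0.25, adjusted p = 0.144). Porcn lies on chromosome X, where the median of 435 tested genes was 0.65, and after its subtraction Porcn stood at -0.53 and was called lower (adjusted p = 1.56e-08). Without Rorβ-CRISPR replicate 2 it was called higher, at 0.18 (adjusted p = 0.0243), as it was with library size only, at 0.33 (adjusted p = 0.000228).

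Frizzled receptors bind the ligands, and 8 of the 10 genes were expressed, while Fzd3 and Fzd10 had 0 reads in all 6 libraries. Fzd7 and Fzd2 led per kilobase in both lines. Fzd2 had 77.5, 70.9 and 74.7 scaled CPM in the Rorβ-CRISPR libraries, against 105, 100.2 and 109.9 in control, with a clear gap between the lines (log2 fold change -0.49, SE 0.037, adjusted p = 1.45e-16). Fzd7 averaged 148 ± 3.14 in Rorβ-CRISPR and 156 ± 3.56 in control. Its log2 fold change of -0.08 was called (adjusted p = 0.0166), but lost its call without Rorβ-CRISPR replicate 1 (0.0639), control replicate 2 (0.0543) or control replicate 3 (0.0872), and was 0.14 (adjusted p = 0.0345) when scaled by library size only. Fzd1, Fzd6 and Fzd8 also fell, with log2 fold changes of -0.29, -0.50 and -0.22. Fzd1 and Fzd8 lost their calls with library size only, at -0.07 and -0.01. The receptors that rose were Fzd5, with 39.6 ± 0.823 in Rorβ-CRISPR and 33.8 ± 2.68 in control (log2 fold change 0.22), and Fzd9. Fzd5 was no longer called after the median of chromosome 1 was subtracted (0.11, adjusted p = 0.0621). Fzd9, needed for normal bone formation in mice, was low, at 2.76 ± 0.638 and 1.41 ± 0.106 scaled CPM (log2 fold change 0.62, adjusted p = 8.59e-06). Fzd4 was not called, at 3.95 ± 0.492 in Rorβ-CRISPR and 4.20 ± 0.253 in control (log2 fold change -0.07, 95% interval -0.28 to 0.13). In all 2 frizzled genes rose and 5 fell (87.5% called), beside 32.9% and 33.3% of all tested genes. With library size only 3 rose and 2 fell, beside 54.0% and 14.6% of all genes.

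The LRP genes were all called, beside 66.2% of all tested genes, and not in the same direction. Lrp5, the co-receptor whose loss in humans and mice lowers bone mass, had 114.6, 109.9 and 108 scaled CPM in the Rorβ-CRISPR libraries, against 182, 194 and 185 in control (log2 fold change -0.75, SE 0.031, adjusted p = 4.81e-27). Lrp6, its partner in beta-catenin signalling, had 189.5, 189 and 187 scaled CPM in Rorβ-CRISPR and 258, 262 and 255 in control (log2 fold change -0.45, SE 0.027, adjusted p = 9.3e-21). The spread within each line was small beside the gap for both. Lrp4, which anchors the inhibitor sclerostin on bone cells, had 180.0, 179 and 184 scaled CPM in Rorβ-CRISPR, against 129.9, 128 and 119 in control. It rose in every library (log2 fold change 0.53, SE 0.031, adjusted p = 8.95e-21). Per kilobase Lrp4 was the highest LRP gene in Rorβ-CRISPR (22.8 ± 0.301, with Lrp6 at 20.2 ± 0.127 and Lrp5 at 18.4 ± 0.580) and the lowest in control (15.8 ± 0.734, with Lrp5 at 31.2 ± 1.03 and Lrp6 at 27.5 ± 0.391).

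Of the ROR and RYK co-receptors, Ror1 fell, and Ror2 and Ryk were not called. Ror1 and Ror2, genes of receptor tyrosine kinases, share only their initials with the nuclear receptor Rorβ. Ror1 had 14.5, 18.2 and 16.9 scaled CPM in the Rorβ-CRISPR libraries, against 24.8, 25.5 and 25.9 in control (log2 fold change -0.60, SE 0.064, adjusted p = 1.39e-11). Ror2, a receptor for Wnt5a, averaged 41.5 ± 1.09 in Rorβ-CRISPR and 44.3 ± 1.10 in control. The libraries of the lines did not overlap for Ror2, but the difference missed the threshold (log2 fold change -0.09, adjusted p = 0.0619). After the median of chromosome 13 (0.20) was subtracted Ror2 stood at -0.29 and was called (adjusted p = 2.16e-07). Ryk had 119, 125 and 115 scaled CPM in Rorβ-CRISPR, against 118, 118 and 123 in control. Its libraries overlapped, and the log2 fold change was -0.00087 (95% interval -0.067 to 0.065, adjusted p = 0.983). With library size only it was called higher, at 0.22 (adjusted p = 0.00101).

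**Figure D3:**
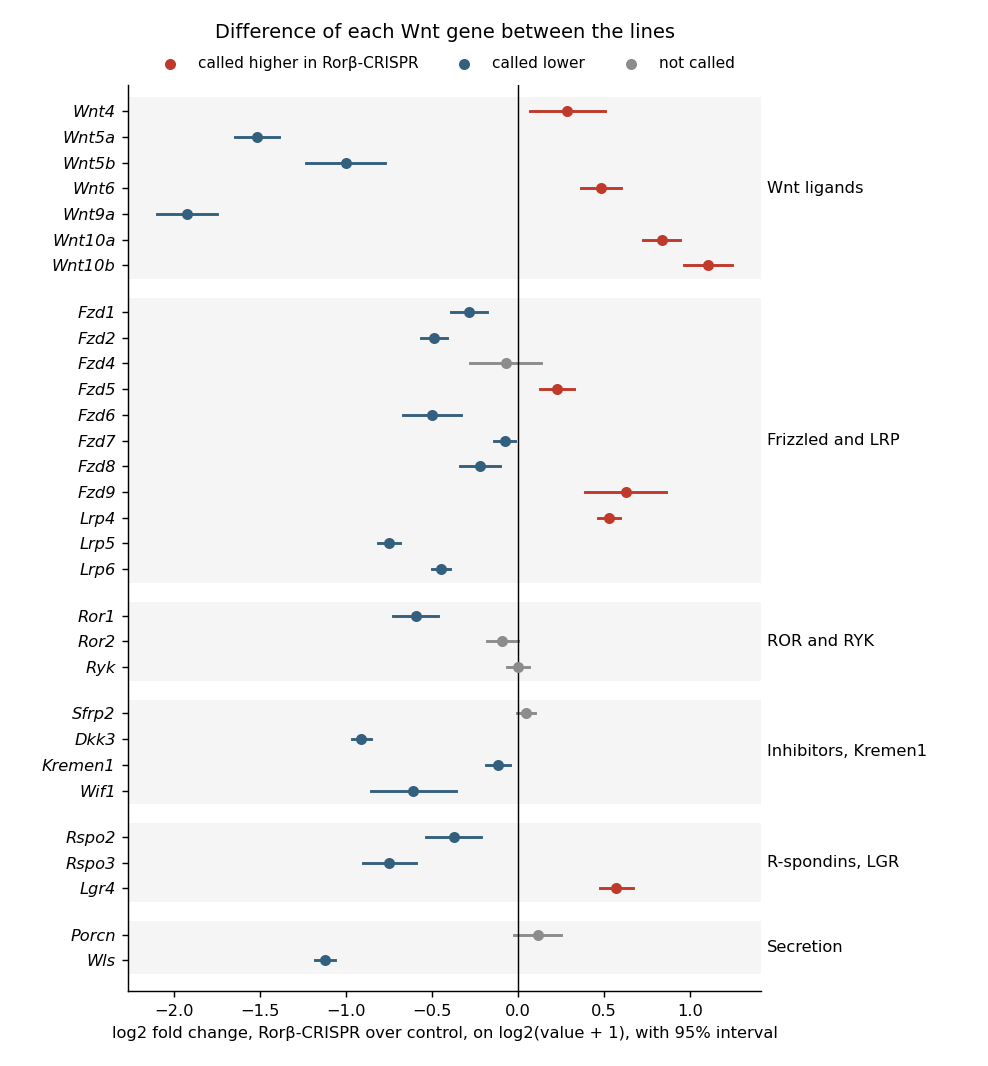
Points give the log2 fold change of each tested Wnt gene, Rorβ-CRISPR over control on the log2(value + 1) scale, with bars for the 95% interval from limma-trend and colours for the call. Wnt9a lies farthest to the left at -1.93 and Wnt10b farthest to the right at 1.10, and the intervals of Fzd4, Ryk, Sfrp2 and Porcn include 0.

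Of the genes of secreted proteins grouped here as inhibitors, Sfrp2 and Dkk3 were the abundant ones. Whether Dkk3 acts as an inhibitor in these cells was not tested. Sfrp2, a decoy that binds Wnt ligands, had 418, 395 and 422 scaled CPM in the Rorβ-CRISPR libraries, against 387, 406 and 402 in control, and the libraries overlapped. Its log2 fold change was 0.05 (95% interval -0.0049 to 0.097, adjusted p = 0.106), and it was called without Rorβ-CRISPR replicate 2, at 0.08 (adjusted p = 0.01055), and with library size only, at 0.27 (adjusted p = 3.27e-05). Dkk3, a divergent member of the Dickkopf family, had 156, 159 and 151 scaled CPM in Rorβ-CRISPR, against 288, 297 and 295 in control. No library of either line came near the other, and Dkk3 was 1.89-fold lower (log2 fold change -0.91, SE 0.027, adjusted p = 4.59e-33). Sfrp2 was the highest of all 52 genes per kilobase in both lines, at 206 ± 7.10 in Rorβ-CRISPR and 199 ± 5.12 in control, and Dkk3 followed it in both, at 46.3 ± 1.204 and 87.4 ± 1.36.

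Wif1, which binds Wnt ligands, had 1.35, 1.43 and 2.18 scaled CPM in the Rorβ-CRISPR libraries, against 2.95, 3.71 and 2.47 in control (log2 fold change -0.61, SE 0.122, adjusted p = 2.47e-05). Kremen1, a receptor that removes LRP co-receptors together with Dickkopf proteins, had 118, 123 and 109 scaled CPM in Rorβ-CRISPR, against 126, 128 and 126 in control. Both fell, but Kremen1 only slightly (log2 fold change -0.12, adjusted p = 0.0027). Kremen1 lost its call without Rorβ-CRISPR replicate 3 (adjusted p = 0.0773), and stood at 0.11 without a call when scaled by library size only. The other 7 inhibitors were under the filter. Dkk2 had 36 reads over the Rorβ-CRISPR libraries and 53 over control, and Dkk1, the best known Dickkopf in bone, had 3 and 2. Frzb, an Sfrp relative of cartilage, had 0 reads in each Rorβ-CRISPR library, against 8, 4 and 2 in control, and the exact 95% counting interval of the ratio reached up to 0.275. Sfrp1 had 0, 1 and 0 reads in Rorβ-CRISPR and 6, 1 and 4 in control, a ratio of 0.083 with an exact 95% counting interval of 0.0019 to 0.57. Sfrp4, Sfrp5 and Sostdc1 had between 2 and 4 reads over all 6 libraries.

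The 2 tested R-spondins fell while the receptor Lgr4 rose. Rspo3 had 9.23, 9.12 and 8.01 scaled CPM in the Rorβ-CRISPR libraries, against 17.0, 14.9 and 14.5 in control (log2 fold change -0.75, SE 0.077, adjusted p = 3.06e-12). Rspo2 had 9.26, 8.79 and 9.89 scaled CPM in Rorβ-CRISPR and 13.4, 10.95 and 12.9 in control (log2 fold change -0.37, adjusted p = 5.09e-05). The libraries of the lines were apart for both, but Rspo2 was not called with library size only (-0.17, adjusted p = 0.0967) or after the median of chromosome 15 was subtracted (-0.11, adjusted p = 0.202). Lgr4, the receptor of this family that was expressed, had 48.0, 48.0 and 49.3 scaled CPM in Rorβ-CRISPR, against 30.3, 32.2 and 34.5 in control (log2 fold change 0.57, SE 0.047, adjusted p = 2.76e-15). Rspo1 had 0 reads in all 6 libraries. Rspo4, Lgr5 and Lgr6, the last a marker of some progenitor cells, had 4, 4 and 8 reads over the Rorβ-CRISPR libraries, against 1 of each over control.

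Chromosome position moved with some of these results, as described for Wnt5a, Porcn and Rspo2. With the median of each chromosome subtracted, 8 Wnt genes were higher and 18 lower, beside 4202 and 4308 of all 13498 tested genes. Fzd5 and Rspo2 were no longer called, Ror2 and Porcn were called lower, and Sfrp2 was called higher at 0.08 (adjusted p = 0.0046). Fzd6, on chromosome 15, stood at -0.24 (adjusted p = 0.00931), and Fzd9, on chromosome 5 with a median of 0.21, at 0.42 (adjusted p = 0.00231). Wnt9a, Wls, Dkk3, Lrp4, Lrp6, Rspo3 and Lgr4 lie on chromosomes with medians between -0.04 and -0.02, and Lrp5 on chromosome 19 with a median of 0.09.

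**Figure D4:**
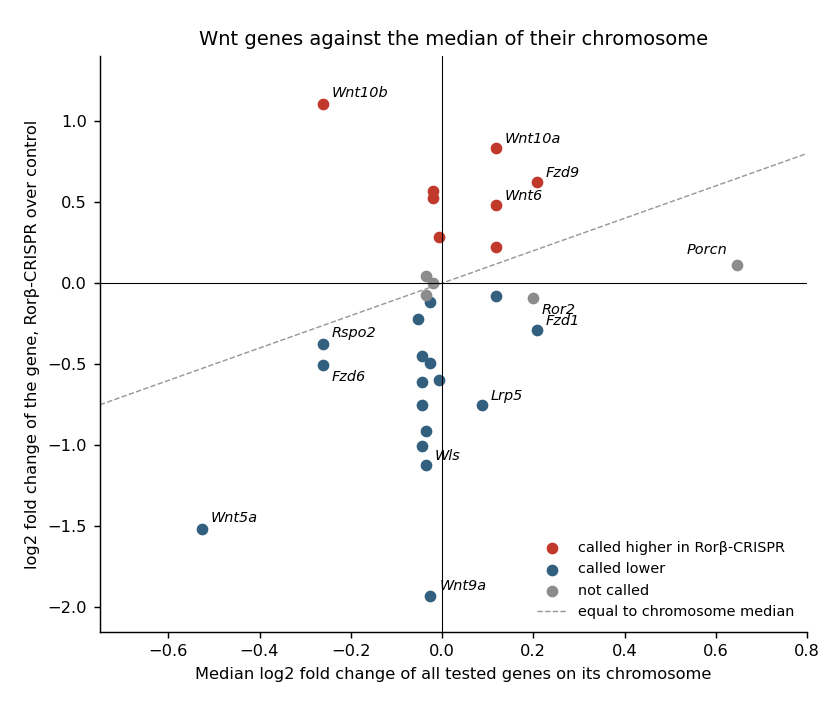
Each point is a tested Wnt gene, with the median log2 fold change of all tested genes on its chromosome on the horizontal axis and its own log2 fold change, Rorβ-CRISPR over control, on the vertical axis. Wnt10b lies far above the dashed line of equality at a chromosome median of -0.26, Porcn lies below it at 0.65, and Rspo2 lies close to it.

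Other genes of the pathway, from 4 lists chosen with earlier results of these data known, were counted in the same fit. Of 20 further genes at the cell surface or outside the cell, 9 were tested, and 5 rose and 4 fell in Rorβ-CRISPR (median log2 fold change 0.12). The share called was 100%, beside 66.2% of all tested genes. The ligases Rnf43 and Znrf3, which remove frizzled receptors from the surface and are held back by R-spondins with Lgr receptors, were both called higher. Rnf43 averaged 17.8 ± 0.585 scaled CPM in Rorβ-CRISPR and 10.2 ± 0.642 in control (log2 fold change 0.75, adjusted p = 1.92e-13). Znrf3 had a log2 fold change of only 0.16 (adjusted p = 0.0386) with overlapping libraries, and the authors' deposited q-value for it is 0.179. Notum, whose product strips the lipid from Wnt proteins, rose at low values, with 1.603 ± 0.379 in Rorβ-CRISPR and 0.505 ± 0.158 in control (log2 fold change 0.79). It passed the filter through the Rorβ-CRISPR libraries alone, so its call, counted among the 5, is no independent sign of a difference. Gpr124, a co-activator for Wnt7a and Wnt7b in vessels, fell by 0.63 on the log2 scale.

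In the cytoplasm, 23 of 25 listed genes of beta-catenin turnover and its modulators were tested, of which 6 rose, 9 fell and 8 were not called (median log2 fold change -0.04). The share called was 65.2%, near the 66.2% of all tested genes. Beta-catenin itself (Ctnnb1) stood at 793 ± 5.84 in Rorβ-CRISPR and 837 ± 15.004 in control (log2 fold change -0.08, adjusted p = 0.00104). With library size only Ctnnb1 was called higher, at 0.15 (adjusted p = 0.0270), and the authors' deposited q-value for it is 0.822. Dact1, a Dishevelled-binding modulator, and the tankyrase gene Tnks fell by 2.59 and 0.77, and Nkd2, a feedback inhibitor, rose by 0.96. Axin2, a target of the pathway that limits it, rose by 0.26 (adjusted p = 0.000185). Of 17 genes of planar polarity and calcium signalling, 13 were tested, 2 rose and 9 fell (84.6% called, median -0.26), with Prickle2 at -0.96, Nfatc4 at -0.76 and Camk2g at -0.67. Nfatc4 and Camk2g share chromosome 14 with Wnt5a and stood at -0.24 and -0.14 after its median was subtracted. Mapk8, also on chromosome 14, turned from -0.43 to 0.09, and Scrib, on chromosome 15, from -0.20 to 0.07. Both lost their calls. After this centring 2 genes of the list were higher and 7 lower, beside 4202 and 4308 of all tested genes. Of 16 nuclear genes, all tested, 6 rose and 8 fell (87.5% called, median -0.07), and the transcription factor genes Tcf7 and Lef1 and the co-repressor gene Tle4 rose by 2.35, 1.28 and 0.93. With library size only, the counts for these 4 lists were 5 higher and 4 lower, 13 and 4, 4 and 6, and 8 and 1, beside 54.0% of all genes higher and 14.6% lower.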

How the data were processed

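RNA of 6 libraries was measured, 3 of the Rorβ-CRISPR line and 3 of control. Per the labels' protocols, RNA was taken up in Trizol, cleaned on columns and made into libraries with the Encore NGS kit. TopHat2 2.0.6, HTSeq and build mm9 appear in the submitters' processing notes. No source used here gives the annotation, the strand setting or the authors' test. The values per library are a signal that the authors scaled with TMM factors, per the file headers. Deposited beside them are the authors' median count of each group, their fold (ratio) between groups, and a p-value and q-value for it.

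Dividing by what 1 read is worth in a library gave whole reads for 100% of values (within 0.01), and the group medians of these reads matched the deposited ones throughout the 43346 rows. Limma-trend with robust moderation was fitted to log2(value + 1) of 13498 rows with at least 1 scaled CPM in 3 libraries, with Benjamini-Hochberg adjustment over all rows and a threshold of 0.05. Fold changes on this scale understate changes of low genes. The fit was tested on simulated data in which far fewer genes changed than were called here. That test does not show how the fit behaves on these libraries. Intervals and floors given for reads describe counting error alone.

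The 52 genes and all lists were chosen with earlier results of these data known. Values in every library are given for up to 4 called genes of smallest adjusted p in each role and for the most abundant one, and further pathway genes by largest change, up to 3 in each list. Ctnnb1, Axin2, Znrf3 and genes named under the filter were added to that rule after their values were seen. Chromosomes came from RefSeq genes of GRCm38.p6 by symbol or unique synonym, for 12584 of 13498 tested rows (93.2%), and exon lengths from GENCODE vM21. Because the build differs from mm9, these give names, lengths and order only, except for the promoter windows, which are RefSeq's of GRCm38.p6. In GENCODE vM21, exons of Fzd5, Fzd6, Rspo3, Sfrp2, Wnt7b and Wnt11 share 3.47% to 17.8% of their length with a gene on the other strand. Without a stated strand those reads cannot be told apart. Versions were Python 3.11.15 with pandas 2.3.3, scipy 1.17.1 and matplotlib 3.10.9, and R 4.3.3 with DESeq2 1.42.0, edgeR 4.0.16 and limma 3.58.1.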

Additional observations from a re-analysis of the deposited data

How the results depend on the processing

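Under 19 alternatives, 8 of the 30 tested Wnt genes kept direction and call wherever they gave a value, and 6 changed direction in some setting. Those 8 are the genes that passed the test against a fold of 1.5, which alone took the call from 17 genes. In each other setting at least 20 Wnt genes kept both direction and call, the fewest being with library size only. The counts of Wnt genes in Rorβ-CRISPR stayed within 1.5 times of 8 higher and 17 lower except against a fold of 1.5, which gave 2 and 6 Wnt genes and 413 and 645 of all genes, a stricter null by construction. With library size only, 7291 of all genes passed upward and 1975 downward, so 78.7% of calls were upward, where the TMM values gave 49.7%. In that scaling Fzd4, Fzd7, Ror2, Ryk and Kremen1 turned to 0.11, 0.14, 0.13, 0.22 and 0.11, of which Fzd7 and Ryk were called higher. Ryk, at -0.00087, also turned to 0.01035 without ribosomal RNA rows, 0.00096 with DESeq2 and 0.01943 after chromosome centring, and ranged from -0.03029 to 0.02764 on leaving out a library. Porcn turned to -0.53 after chromosome centring. Apart from the scaling and centring themselves, the cause was not tested. Leaving out each library gave 7 to 9 Wnt genes higher and 16 to 17 lower, and 4046 to 4240 and 4095 to 4310 of all genes. EdgeR's quasi-likelihood test on recovered reads called 8 Wnt genes higher and 17 lower, beside 4419 and 4492 of all genes. DESeq2 called 7 and 17, beside 4201 and 4238 of all genes, and Wnt4 had an adjusted p of 0.0581. Without a filter on low values 10 Wnt genes were higher and 19 lower, beside 4631 and 4733 of all genes. Added were Wnt7b and Lgr6 (higher) and Frzb and Sfrp1 (lower).

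With the replicate number as a block, 8 Wnt genes were higher and 17 lower, and 4502 and 4551 of all genes. Same-numbered libraries did not deviate together in every pair (correlations -0.056, 0.167 and 0.127), and the labels do not say what a number shares. Depth limited the genes under the filter, which had 2 to 89 reads over all 6 libraries or none.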

Other observations

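In the authors' deposited table, 8 of the 30 tested Wnt genes have a fold above 1 and 15 a fold below 1 at a q-value under 0.05. Fzd7 (q = 0.320) and Kremen1 (q = 0.102), called lower by limma-trend, are not among them. The share of all genes at that q-value was not counted, and limma-trend called 66.2% of all tested genes. The counts are therefore no sign of a difference particular to Wnt genes. The authors' deposited table also has a q-value under 0.05 for 2 genes that stayed under the filter, Sfrp1 (q = 0.0437) and Frzb (q = 0.00107), both with few reads.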
